A study of Mus musculus with 5 samples.

Results

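The genes described here are 9 markers of macrophages, Csf1r, Cd68, Mrc1, Cd163, Lyz2, Aif1, Cd14, Fcgr1 and Tyrobp, in cells sorted from dystrophic mouse muscle. They were taken by name, as every non-control probe whose gene name in the scanner files is one of the 9. This gave 11 probes of the 55681 non-control probes on the array, and 9 of its 36409 genes and unnamed features. Csf1r had 3 probes and each other gene had 1. Of the 9 genes, 8 were well above background on all 5 arrays and could be tested, and Cd163 was well above background on none of them.

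RNA was prepared from cells of muscle of mdx mice (genotype DMD/MDX, strain C57BL/6), in which a mutation abolishes dystrophin, as in Duchenne muscular dystrophy. Every group shares this genotype, so healthy muscle enters no comparison. The mice were injected intraperitoneally for 45 days with vehicle or with TSA at 0.6 mg/kg. TSA is trichostatin A, an inhibitor of histone deacetylases. Cells were sorted by FACS on CD34, α7-integrin and Sca1. The 3 groups were Sca1+ interstitial cells (CD34+/α7-integrin+/Sca1+) of TSA-treated mice with 2 arrays, MuSC (muscle satellite cells, CD34+/α7-integrin+/Sca1-) of vehicle-treated mice with 1 array, and Sca1+ interstitial cells of vehicle-treated mice with 2 arrays. The labels name no gate on a leucocyte surface protein and do not give the age of the mice. They do not say whether replicates came from separate mice or from pools, so the spread behind each p-value is that of these arrays and may be technical. MuSC of TSA-treated mice were not analysed here.

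Macrophages enter injured muscle as blood monocytes or reside there, clear dying fibres and release signals that act on satellite cells and on fibroadipogenic progenitors. In mdx muscle, where fibres degenerate and regenerate repeatedly, they are among the abundant immune cells. Csf1r is the receptor through which the cytokines Csf1 and Il34 keep macrophages alive. Tyrobp, Fcgr1 and Cd14 belong to sensing and activation, Mrc1, Cd163 and Cd68 to scavenging and endocytosis, Lyz2 to killing of bacteria, and Aif1 to the actin skeleton.

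The array reads each gene through a strand of 60 bases, and 3 of these probes are shown as examples, those of Tyrobp, Lyz2 and Cd163. Positions are given in mm9, as in the array files, and no exon annotation of that build was used here. The Tyrobp probe covers chr7:31200651-31202378 on the plus strand, a span of 1728 bases that is longer than the probe and so crosses an intron. Its capitals mark the codons of a tyrosine, 2 further residues and a leucine, the first part of the ITAM through which the adaptor recruits the kinase Syk. The Lyz2 probe lies at chr10:116719175-116719234 on the minus strand, and the Cd163 probe at chr6:124270436-124270495 on the plus strand.
Tyrobp probe: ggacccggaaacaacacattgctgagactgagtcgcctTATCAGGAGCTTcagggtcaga
Lyz2 probe: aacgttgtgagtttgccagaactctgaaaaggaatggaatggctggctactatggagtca
Cd163 probe: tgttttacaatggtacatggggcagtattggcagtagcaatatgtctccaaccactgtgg

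Of the other members' probes, that of Cd68 lies at chr11:69478979-69479038, that of Mrc1 at chr2:14253273-14253332, that of Aif1 at chr17:35307959-35308018 and that of Fcgr1 at chr3:96086839-96086898. Each is a single spot. RefSeq promoter entries of build GRCm38.p6 were matched for 6 of the 9 genes and searched for the letters AGGAAGT on both strands. These letters fit the core bound by PU.1 (Spi1), the ETS factor of the macrophage lineage, and were chosen after the sequences had been read. The 250 bases before the gene's start held them in 3 of the 6 members, and in 7.69% of 32851 promoters of the same length. A match is a description of the sequence and not a binding site. The promoters with a match are shown 5′ to 3′ on the gene's strand, with the match, here as its reverse complement ACTTCCT, in capitals. That of Lyz1, the close relative of Lyz2, is shown for comparison. The Mrc1 window is chr2:14229164-14229413 on the plus strand. The windows of Fcgr1 (chr3:96293970-96294219), Lyz2 (chr10:117282273-117282522) and Lyz1 (chr10:117292869-117293118) are on the minus strand. Relative to the gene's start, the match began at -211 in Mrc1, at -61 in Fcgr1 and at -100 in both lysozyme genes. Without gaps, the windows of Lyz2 and Lyz1 had the same base at 152 of 250 positions, 111 of them among the 120 positions next to the start.
Mrc1 promoter: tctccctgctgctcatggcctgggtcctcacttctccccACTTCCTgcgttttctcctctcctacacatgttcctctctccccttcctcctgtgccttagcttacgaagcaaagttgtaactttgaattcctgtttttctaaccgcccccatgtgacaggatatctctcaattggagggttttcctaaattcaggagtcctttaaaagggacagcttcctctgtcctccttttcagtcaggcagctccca
Fcgr1 promoter: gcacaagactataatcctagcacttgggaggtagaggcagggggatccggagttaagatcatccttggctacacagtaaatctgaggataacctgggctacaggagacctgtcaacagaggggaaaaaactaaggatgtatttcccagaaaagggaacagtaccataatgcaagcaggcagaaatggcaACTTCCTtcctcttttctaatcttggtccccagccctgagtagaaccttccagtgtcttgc
Lyz2 promoter: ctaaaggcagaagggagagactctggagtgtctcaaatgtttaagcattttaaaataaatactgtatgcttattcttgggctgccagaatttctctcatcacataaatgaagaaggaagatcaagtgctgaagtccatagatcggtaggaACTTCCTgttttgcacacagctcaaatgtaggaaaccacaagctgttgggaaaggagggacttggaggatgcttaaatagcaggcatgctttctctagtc
Lyz1 promoter: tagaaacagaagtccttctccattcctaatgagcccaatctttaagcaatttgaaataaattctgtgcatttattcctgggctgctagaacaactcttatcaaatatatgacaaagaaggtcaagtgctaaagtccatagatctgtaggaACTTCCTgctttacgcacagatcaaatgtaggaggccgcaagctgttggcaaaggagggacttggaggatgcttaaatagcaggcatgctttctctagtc

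Levels below are processed signals as a percent of the same array's 75th percentile over all non-control spots. They are set against each other only within a probe, or within a sum over the same list of genes. That percentile stood at 326 and 452 on the Sca1+ TSA arrays, at 240 on the MuSC array and at 235 and 165 on the Sca1+ vehicle arrays, and 58.5% to 66.9% of spots were well above background. Replicate 1 of each group was on slide 1 and replicate 2 on slide 2. Ly6a, which encodes Sca1, stood at 5918% and 5221% in Sca1+ TSA, 275% in MuSC and 8792% and 9657% in Sca1+ vehicle. Itga7, the α7-integrin gene, stood at 2314% and 2402% in Sca1+ TSA, 13007% in MuSC and 255% and 213% in Sca1+ vehicle. The Sca1+ TSA arrays therefore lay between MuSC and Sca1+ vehicle for Itga7, and 5 of 7 satellite cell genes were called higher with TSA (median log2 difference 3.09 over the 7). Of 7 tested mast cell genes, 6 were called higher with TSA, with a median of 5.73. Changes in the share of macrophages and changes of RNA per cell cannot be told apart in such bulk samples.

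In Sca1+ cells, 5 of the 8 tested macrophage genes, Mrc1, Tyrobp, Cd68, Aif1 and Lyz2, were higher on both TSA arrays than on both vehicle arrays, by 1.48 to 2.23 times. Csf1r on its brightest probe and Cd14 were lower on both TSA arrays, and Fcgr1 overlapped. None of the 8 passed an adjusted p of 0.05 in limma, and 4 were higher at an unadjusted p under 0.05. Of all 26082 genes tested, 2.71% were called higher and 0.268% lower in this comparison, 10.5% were higher and 12.7% lower at an unadjusted p under 0.05. Without overlap between the groups, 22.9% were higher and 36.4% lower on both TSA arrays. The median log2 difference was 0.58 over the 8 members and -0.13 over all genes tested. Mrc1, Tyrobp, Cd68 and Aif1 stood in MuSC at levels near those of Sca1+ TSA, and Mrc1 was called higher in MuSC than in Sca1+ vehicle.

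**Figure D1:**
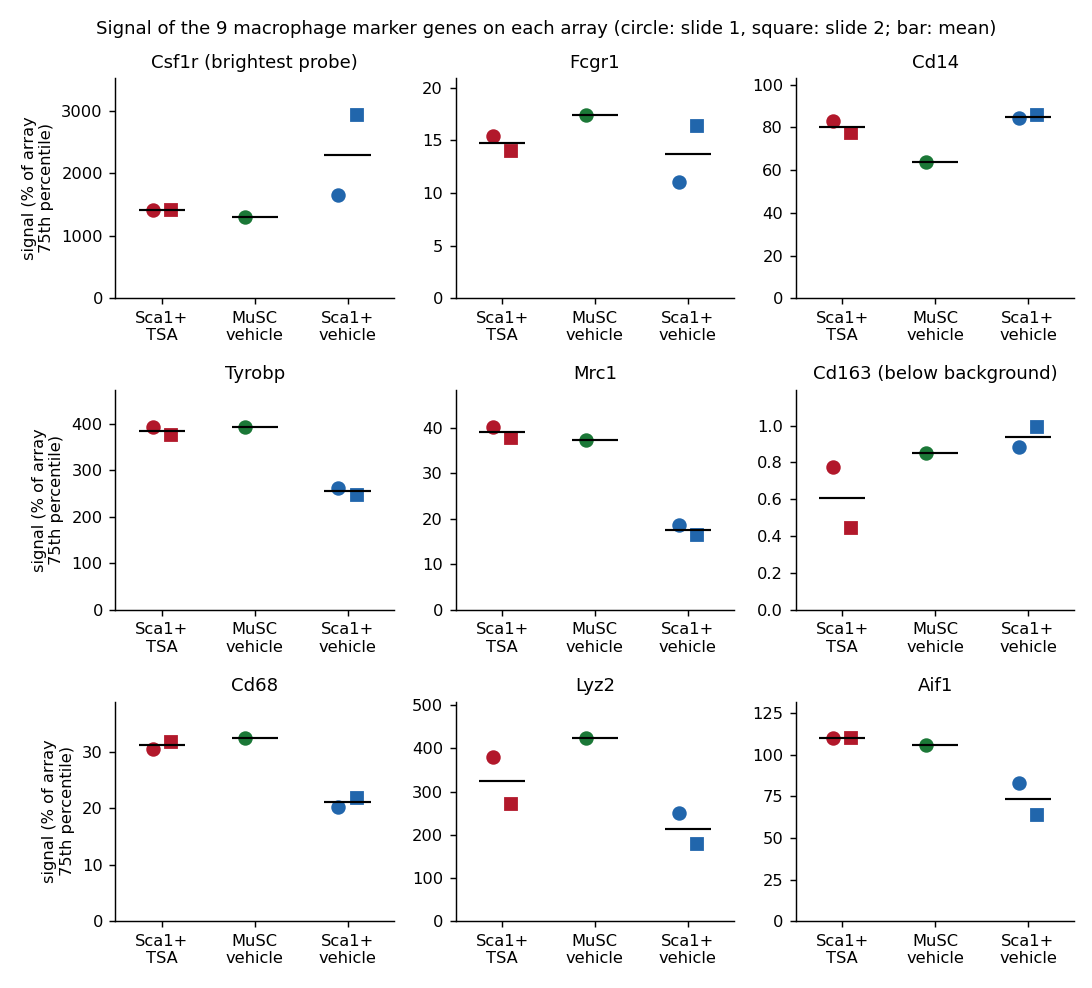
Signal of each of the 9 genes on each array, as a percent of the array's 75th percentile, for Sca1+ TSA, MuSC vehicle and Sca1+ vehicle. Circles are slide 1, squares slide 2 and bars group means. Mrc1 stood at 37.3% to 40.2% on the 3 arrays of Sca1+ TSA and MuSC and at 16.3% to 18.7% on the Sca1+ vehicle arrays, and the higher Csf1r mean of Sca1+ vehicle rests largely on its slide 2 array.

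Mrc1 encodes the mannose receptor, a scavenger receptor of tissue macrophages that takes up glycoproteins with exposed mannose. Its level was 40.2% and 37.7% in Sca1+ TSA, 37.3% in MuSC, and 18.7% and 16.3% in Sca1+ vehicle. Both TSA arrays and the MuSC array lay above both vehicle arrays. The group averages were 38.96% ± 1.77 in Sca1+ TSA and 17.5% ± 1.68 in Sca1+ vehicle (SD, n = 2 each). TSA over vehicle was 2.23 times, a log2 difference of 1.16 ± 0.16 (SE) with a 95% interval of 0.72 to 1.59 and an adjusted p of 0.0505 in limma, just above the threshold. The difference was 1.10 within slide 1 and 1.21 within slide 2. With the slide, which is also the replicate number, as a block, the adjusted p was 0.0436. With normexp background correction of the spot signal the log2 difference was 0.33 (adjusted p = 0.238), so its size depends on the background correction. The list of mast cell genes had summed levels of 3322% and 3052% in Sca1+ TSA, 135% in MuSC and 190% and 225% in Sca1+ vehicle. The part of mast cells in the Mrc1 difference was not tested.

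Cd163 encodes the scavenger receptor for haemoglobin bound to haptoglobin, a marker of resident macrophages. It read 0.773% and 0.444% in Sca1+ TSA, 0.849% in MuSC and 0.885% and 0.994% in Sca1+ vehicle, not well above background anywhere. No fold is given, and the probe shown above sets only a bound on the gene's level.

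Cd68 encodes a glycoprotein of late endosomes and lysosomes that is abundant in macrophages. It stood at 30.6% and 31.9% in Sca1+ TSA, 32.4% in MuSC and 20.3% and 21.9% in Sca1+ vehicle. The Sca1+ groups did not overlap, and the MuSC array stood just above the TSA arrays. The log2 difference of TSA and vehicle was 0.57 ± 0.15 (95% interval 0.16 to 0.97, adjusted p = 0.145). It was 0.59 within slide 1 and 0.54 within slide 2. With normexp background correction it was 0.04.

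Lyz2 encodes lysozyme M, the enzyme with which macrophages and neutrophils cleave bacterial cell walls. Its level was 379% and 272% in Sca1+ TSA, 423% in MuSC and 251% and 179% in Sca1+ vehicle. Within each slide the TSA array was the higher by nearly the same amount, 0.60 and 0.61 on the log2 scale, while both groups were higher on slide 1. The log2 difference was 0.60 ± 0.27 (95% interval -0.14 to 1.34, adjusted p = 0.274). Lyz1, a near copy of Lyz2 whose transcripts the probes may not separate, read 1878% and 2577% in Sca1+ TSA, 2036% in MuSC and 1230% and 1328% in Sca1+ vehicle. Its log2 difference was 0.78 ± 0.21 (adjusted p = 0.152), in the same direction as that of Lyz2.

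Aif1 encodes Iba1, a calcium-binding protein of the actin cytoskeleton in macrophages and microglia. It read 109.95% and 109.8% in Sca1+ TSA, 106% in MuSC and 83.3% and 64.2% in Sca1+ vehicle. The TSA arrays were nearly equal, while the vehicle arrays lay apart from each other and both below the other 3 arrays. The log2 difference of TSA and vehicle was 0.59 ± 0.19 (95% interval 0.07 to 1.11, adjusted p = 0.189), at 0.40 within slide 1 and 0.78 within slide 2.

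Tyrobp encodes DAP12, the membrane adaptor that signals for receptors without a signalling tail of their own, such as Trem2. It stood at 394% and 376% in Sca1+ TSA, 392% in MuSC and 263% and 248% in Sca1+ vehicle. Replicates lay close together in both groups of 2 arrays, and the groups did not overlap. TSA over vehicle was 1.51 times, a log2 difference of 0.59 ± 0.15 (95% interval 0.19 to 0.99, adjusted p = 0.134). The difference was 0.59 within slide 1 and 0.60 within slide 2. With normexp background correction it was 0.67 and passed the threshold (adjusted p = 0.0281).

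Fcgr1 encodes the high-affinity Fc receptor for IgG. It read 15.4% and 14.0% in Sca1+ TSA, 17.4% in MuSC and 11.1% and 16.4% in Sca1+ vehicle. The Sca1+ groups overlapped, and the difference ran in opposite directions on the slides, 0.48 on slide 1 and -0.23 on slide 2. The fitted log2 difference was 0.13 ± 0.25 (95% interval -0.54 to 0.79, adjusted p = 0.767).

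Cd14 encodes the co-receptor that passes endotoxin to Tlr4, and fibroblast-like cells also express it. It read 82.8% and 77.3% in Sca1+ TSA, 63.7% in MuSC and 84.2% and 85.7% in Sca1+ vehicle. The MuSC array was the lowest, and all 4 Sca1+ arrays lay between 77.3% and 85.7%. The log2 difference of TSA and vehicle was -0.09 ± 0.15 (95% interval -0.49 to 0.31, adjusted p = 0.735).

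Csf1r, the receptor for Csf1 and Il34, was the member whose probes disagreed. Its brightest probe read 1411% and 1417% in Sca1+ TSA, 1293% in MuSC and 1645% and 2930% in Sca1+ vehicle. Vehicle replicate 2 stood far above the other 4 arrays, and the log2 difference of TSA and vehicle, -0.63 ± 0.32 (95% interval -1.49 to 0.22, adjusted p = 0.304), rested on it. Without that array the difference was -0.22, and without vehicle replicate 1 it was -1.05. The second probe read 167% and 165% in Sca1+ TSA, 169.6% in MuSC and 219% and 259.6% in Sca1+ vehicle. It ran in the same direction, with a log2 difference of -0.52 ± 0.17 and an adjusted p of 0.208 in a fit of every probe on its own. The third probe, whose mapped span of 361 bases crosses an intron, read 36.6% and 33.9% in Sca1+ TSA, 37.6% in MuSC and 27.2% and 34.2% in Sca1+ vehicle. There the Sca1+ groups overlapped, with a log2 difference of 0.21 ± 0.19 (adjusted p = 0.546). No direction is therefore given for Csf1r.

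**Figure D2:**
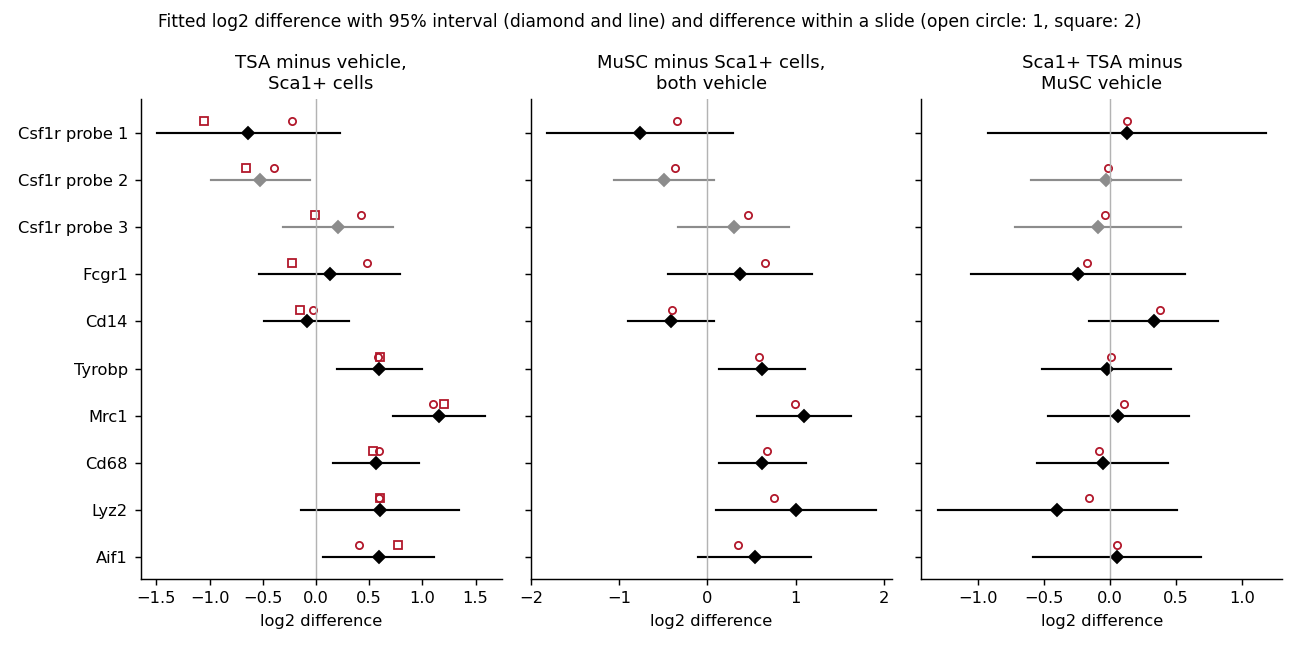
Log2 difference of each member in the 3 comparisons, with diamonds for the fitted value, lines for the 95% interval, and open circles and squares for the difference within slide 1 and slide 2. Grey marks the Csf1r probes fitted outside the gene-level table. In TSA minus vehicle the slides gave nearly the same value for Mrc1, Tyrobp, Cd68 and Lyz2, and opposite signs for Fcgr1 and the third Csf1r probe.

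The MuSC array was then set against Sca1+ vehicle. Of 8 tested, 1 passed the threshold as higher, Mrc1, and none as lower, where 10.5% of all genes tested were called higher and 11.7% lower. The MuSC array lay above both Sca1+ vehicle arrays for 6 members and below both for Cd14 and the brightest Csf1r probe. Of all genes tested, 39.3% were above and 44% below without overlap. On the third Csf1r probe the MuSC array lay above both. At an unadjusted p under 0.05, 4 members and 17.1% of all genes tested were higher. With a single MuSC array, the fit assumes that MuSC vary like the Sca1+ groups, and p-values rest on that. Mrc1 was 2.14 times as high in MuSC, a log2 difference of 1.09 ± 0.20 (95% interval 0.56 to 1.63, adjusted p = 0.0261), and 1.00 within slide 1. The call was lost with normexp background correction, where the difference was 0.44 (adjusted p = 0.292 in limma). It was also lost when any 1 of the 4 Sca1+ arrays was left out, where fewer degrees of freedom remained. The TSA arrays do not enter this difference, so leaving 1 of them out changes only the error estimate. The call held with the slide as a block, at 1.02 (adjusted p = 0.0374).

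The remaining members missed the threshold between MuSC and Sca1+ vehicle. The log2 differences were 1.00 ± 0.34 for Lyz2 (adjusted p = 0.114), 0.62 ± 0.18 for Tyrobp (adjusted p = 0.0843) and 0.62 ± 0.18 for Cd68 (adjusted p = 0.0864). Those of Aif1, 0.53 ± 0.24 (adjusted p = 0.192), and Fcgr1, 0.37 ± 0.30 (adjusted p = 0.438), were smaller. Cd14 had -0.42 ± 0.18 (adjusted p = 0.188). The brightest Csf1r probe had -0.76 ± 0.39 (adjusted p = 0.245), the second -0.49 ± 0.21 (adjusted p = 0.192) and the third, in the other direction, 0.30 ± 0.23 (adjusted p = 0.431). The median over the 8 members was 0.58, against -0.04 over all genes tested. This comparison and that of TSA and vehicle share the Sca1+ vehicle arrays.

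Between Sca1+ TSA and MuSC, groups that differ in population and in treatment, no member passed the threshold in limma in either direction, and none did at an unadjusted p under 0.05. Of all genes tested, 7.96% were called higher and 4.83% lower in this comparison, and 14.3% were higher and 14.5% lower at an unadjusted p under 0.05. Both TSA arrays lay above the MuSC array for 4 members and below it for 3, where 33.7% of all genes tested were above and 48.1% below. The fitted log2 differences of Tyrobp, Cd68, Aif1 and Mrc1 lay between -0.06 and 0.06. Their 95% intervals reached from -0.52 to 0.46 for Tyrobp and from -0.55 to 0.44 for Cd68. They reached from -0.58 to 0.69 for Aif1 and from -0.47 to 0.59 for Mrc1. Differences within these ranges remain compatible with the data. Lyz2 had -0.40 (95% interval -1.31 to 0.51), Fcgr1 -0.24 (95% interval -1.06 to 0.57) and Cd14 0.33 (95% interval -0.16 to 0.82). The lack of a call does not show equal levels, since MuSC had 1 array with no spread of its own. No member was called between Sca1+ TSA and Sca1+ vehicle either. For Cd14 and Fcgr1, Sca1+ TSA lay nearer to Sca1+ vehicle, with log2 differences of -0.09 and 0.13. Between MuSC and Sca1+ vehicle, Mrc1 alone was called.

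The members differed in their profile over the arrays. Each gene's 5 log2 values were centred on their mean, and the mean profile of the 8 members was 0.19 and 0.09 in Sca1+ TSA, 0.16 in MuSC and -0.25 and -0.20 in Sca1+ vehicle. Cd68 and Tyrobp lay nearest to it, with root mean square distances of 0.12 each, and Csf1r farthest, with 0.57. Csf1r, on its brightest probe, and Cd14 ran against the mean profile, with their highest centred values, 0.82 and 0.13, on vehicle replicate 2. Among 13797 other named genes well above background on all 5 arrays, the 6 nearest to that profile were Med12, Dph6, Vps13c, Arglu1, Irgq and Ikbkg, at distances of 0.035 to 0.043 over 5 arrays. Med12 encodes a subunit of the Mediator complex and Ikbkg the regulatory subunit of the IκB kinase. Med12 read 379% and 357% in Sca1+ TSA, 392% in MuSC and 279% and 285% in Sca1+ vehicle. This was the brighter of 2 Med12 probes, which gave 0.38 and 0.09 with TSA and 0.47 and -0.46 in MuSC against Sca1+ vehicle. With TSA the 2 probes of Arglu1 gave 0.39 and 0.06, those of Vps13c 0.34 and 0.12 and those of Ikbkg 0.32 and 0.47. The likeness thus holds for the chosen probe and not for every probe of these genes. Of the 6, none was called in any of the 3 comparisons, with adjusted p-values in limma of 0.146 or more.

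Other genes typical of macrophages were looked at as a list of 20, all of them tested. With TSA, 18 of 20 had a positive difference, and the median was 0.53, against -0.13 over all genes tested. Of the 20, 1 was called higher and none lower, and 11 were higher at an unadjusted p under 0.05 in limma. In MuSC against Sca1+ vehicle, 4 were called higher and 1 lower, and the median was 0.80, against -0.04 over all genes tested. For this and every list below, 2.71% of all genes tested were called higher and 0.268% lower with TSA. At an unadjusted p under 0.05 these shares were 10.5% and 12.7%. In MuSC, 10.5% were called higher and 11.7% lower. Slc11a1, the metal transporter of the phagosome, was the one called with TSA. It read 182% and 179% in Sca1+ TSA, 342% in MuSC and 58.4% and 61.8% in Sca1+ vehicle. Its log2 difference was 1.59 ± 0.15 with TSA (adjusted p = 0.0192) and 2.51 ± 0.18 in MuSC (adjusted p = 0.00306). When either TSA array was left out, no gene at all passed between TSA and vehicle in limma, although an unadjusted p under 0.05 held for 1897 genes as higher and 3015 as lower without replicate 1, and for 1929 and 1171 without replicate 2. Every call with TSA thus needs both TSA arrays. Mertk, a receptor for the uptake of dying cells, was higher in MuSC by 2.5 ± 0.32 (adjusted p = 0.0115) and had 1.65 ± 0.26 with TSA (adjusted p = 0.0666). Cd209f, a lectin, was higher in MuSC by 2.20 ± 0.35 (adjusted p = 0.0189).

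Adgre1, the gene of F4/80, read 78.2% and 99.2% in Sca1+ TSA, 101% in MuSC and 60.4% and 44.3% in Sca1+ vehicle. On this probe, the brighter of 2, the limma log2 difference was 0.77 ± 0.24 with TSA (adjusted p = 0.180) and 0.96 ± 0.29 in MuSC (adjusted p = 0.0932). The other Adgre1 probe had 0.22 with TSA and 0.61 in MuSC. Itgam, the gene of CD11b, went the other way on its brightest probe, with -0.74 ± 0.22 with TSA (adjusted p = 0.167) and -1.54 ± 0.27 in MuSC (adjusted p = 0.0239). Its probes spanned -1.54 to -0.04 in MuSC, so that they disagree in size. Ptprc, the gene of the leucocyte protein CD45, read 22.8% and 19.6% in Sca1+ TSA, 20.0% in MuSC and 15.0% and 8.54% in Sca1+ vehicle. Its log2 difference was 0.90 ± 0.32 with TSA (adjusted p = 0.206) and 0.82 ± 0.39 in MuSC (adjusted p = 0.218).

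The 12 genes shared by most leucocytes summed to 749.7% and 788% in Sca1+ TSA, 723% in MuSC and 480.1% and 502% in Sca1+ vehicle, with all 12 detected on at least 1 array. Both TSA arrays and the MuSC array lay above both vehicle arrays, as they did for Mrc1, Tyrobp, Cd68, Aif1 and Lyz2. A sum follows its brightest probes. Over the 9 members it was 2464% and 2335.5% in Sca1+ TSA, 2366.5% in MuSC and 2376% and 3562% in Sca1+ vehicle. Over the 20 other macrophage genes it was 13322% and 13884% in Sca1+ TSA, 9922% in MuSC and 16887% and 22316% in Sca1+ vehicle. Csf1r led the former and Itgam the latter, and neither had the order of the leucocyte sum. With TSA 11 of the 12 leucocyte genes had a positive difference (median 0.80, against -0.13 over all genes tested). None was called in limma, although 10 were higher at an unadjusted p under 0.05, where 10.5% of all genes tested were. In MuSC all 12 were positive (median 0.75, against -0.04 over all genes tested). Of these, 4 were called higher, where 10.5% of all genes tested were. The 3 with the largest difference were Dock2, an activator of Rac in leucocytes, at least 1.27 times as high (adjusted p = 0.0181), Fermt3, which activates integrins, with 1.53 ± 0.29 (adjusted p = 0.0305), and Ptpn6, the phosphatase SHP-1, with 1.04 ± 0.19 (adjusted p = 0.0257). Relative to Ptprc, the TSA and vehicle arrays of slide 1 differed by -0.01 for Cd68, -0.02 for Tyrobp, -0.01 for Lyz2 and 0.50 for Mrc1 on the log2 scale. The other 4 members were lower relative to Ptprc, with -0.21 for Aif1, -0.12 for Fcgr1, -0.63 for Cd14 and -0.83 for Csf1r. On slide 2, where Ptprc was lowest in vehicle, the values were -0.66 for Cd68, -0.60 for Tyrobp, -0.59 for Lyz2, 0.01 for Mrc1, -0.42 for Aif1, -1.43 for Fcgr1, -1.35 for Cd14 and -2.25 for Csf1r.

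**Figure D3:**
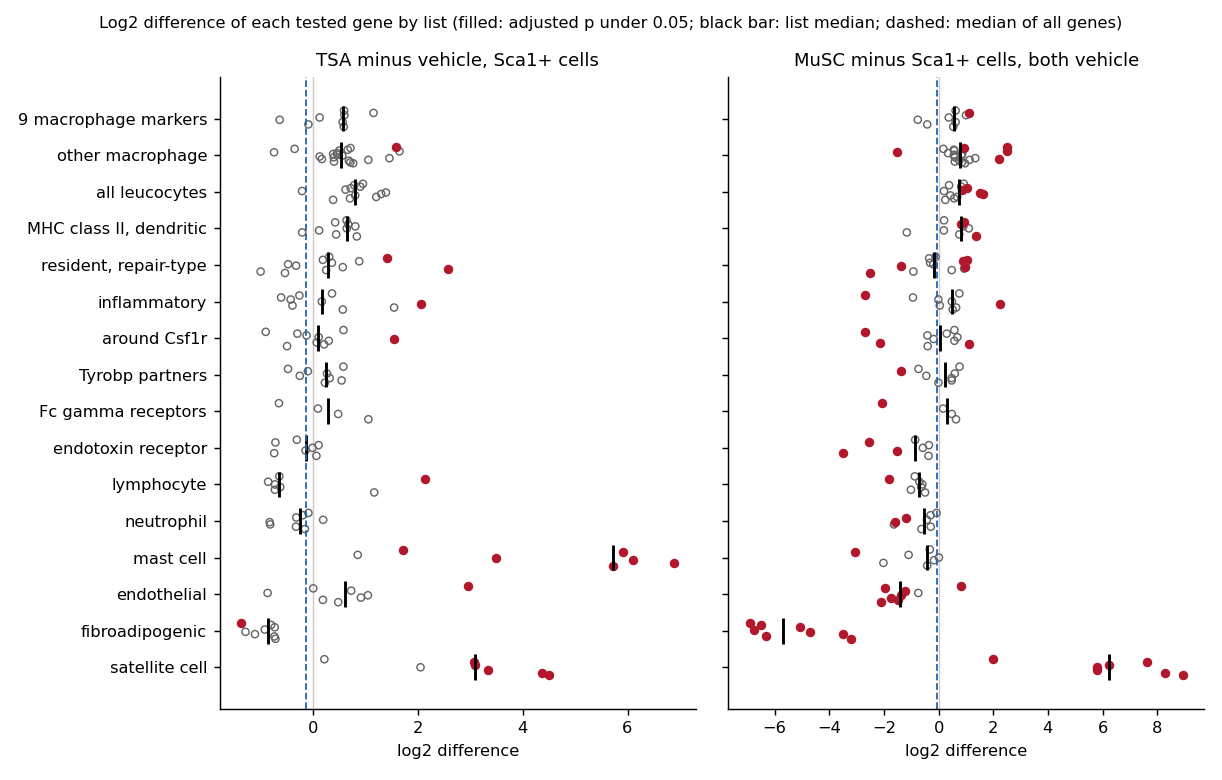
Log2 difference of every tested gene of each list, for TSA minus vehicle in Sca1+ cells and for MuSC minus Sca1+ cells. Filled points passed an adjusted p of 0.05, black bars are list medians and the dashed line is the median of all genes tested. The 8 tested macrophage markers, other macrophage genes, leucocyte genes, MHC class II genes and endothelial genes had medians of 0.53 to 0.80 with TSA, while satellite cell and mast cell genes had medians of 3.09 and 5.73.

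Around Csf1r, the ligands come first. Csf1 read 1135% and 1165% in Sca1+ TSA, 244% in MuSC and 1126% and 1063% in Sca1+ vehicle. It was lower in MuSC by a log2 difference of -2.16 ± 0.18 (adjusted p = 0.00422), and had 0.07 ± 0.15 with TSA (adjusted p = 0.781). Il34, the other ligand, had 0.11 ± 0.15 with TSA (adjusted p = 0.665) and 0.69 ± 0.18 in MuSC (adjusted p = 0.0654). Of the 10 genes of ligands, transcription factors and related receptors, 1 was called higher with TSA, Csf2rb, the shared chain of the receptors for GM-CSF and related cytokines. Csf2rb read 282% and 282% in Sca1+ TSA, 84.7% in MuSC and 99.5% and 92.8% in Sca1+ vehicle, a log2 difference of 1.55 ± 0.15 (adjusted p = 0.0204), while its probes ranged from 0.45 to 1.55. In MuSC, the transcription factor gene Cebpb was higher, with 1.12 ± 0.23 (adjusted p = 0.0365). Spi1, the gene of PU.1, was near background, at 3.97% and 2.55% in Sca1+ TSA, 3.17% in MuSC and 4.31% and 1.05% in Sca1+ vehicle, and was not called.

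Of 11 genes of Tyrobp partners, related adaptors and their kinase, 8 were tested, and no array had Trem3 or Clec5a well above background. None was called with TSA in limma (2 higher at an unadjusted p under 0.05, median 0.25 over the 8), and 1 was called lower in MuSC. Trem2, the lipid receptor that signals through Tyrobp, read 310% and 303% in Sca1+ TSA, 349% in MuSC and 212% and 198% in Sca1+ vehicle. Its log2 difference was 0.58 ± 0.15 with TSA (adjusted p = 0.138) and 0.77 ± 0.18 in MuSC (adjusted p = 0.0511), beside 0.59 and 0.62 for Tyrobp itself. Fcer1g, the adaptor shared by Fc receptors, had 0.55 ± 0.17 with TSA (adjusted p = 0.180). Syk, the kinase recruited by both adaptors, was lower in MuSC by -1.37 ± 0.20 (adjusted p = 0.0163) and had -0.10 ± 0.17 with TSA.

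For the Fc receptors listed with Fcgr1, none of 4 genes was called with TSA in limma (1 higher and 1 lower at an unadjusted p under 0.05) and 1 was called lower in MuSC. This was Fcgrt, the neonatal Fc receptor that other cell types also express, with -2.08 ± 0.24 (adjusted p = 0.00887). The genes of the endotoxin receptor were listed beside Cd14. None of 7 was called with TSA in limma (2 lower at an unadjusted p under 0.05), and in MuSC all 7 had a negative difference and 3 were called lower. These were Lbp, the endotoxin-binding protein, with -3.49 ± 0.18 (adjusted p = 0.00176), Tlr2, with -2.54 ± 0.18 (adjusted p = 0.0031), and Ly96, the partner of Tlr4, with -1.51 ± 0.20 (adjusted p = 0.0121). Tlr4 had -0.31 ± 0.18 with TSA (adjusted p = 0.364) and -0.86 ± 0.22 in MuSC (adjusted p = 0.0651).

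Of 14 genes of resident or repair-type macrophages, the group to which Mrc1 and Cd163 belong by use as markers, 12 were tested and 2 were called higher with TSA. Clec10a, a galactose lectin of macrophages and dendritic cells, read 40.4% and 50.8% in Sca1+ TSA, 14.6% in MuSC and 8.37% and 6.95% in Sca1+ vehicle, a log2 difference of 2.57 ± 0.20 (adjusted p = 0.0136). Stab1, a scavenger receptor that endothelial cells also express, read 325% and 342% in Sca1+ TSA, 98.2% in MuSC and 122% and 129% in Sca1+ vehicle, a log2 difference of 1.41 ± 0.15 (adjusted p = 0.0262). Of 8 endothelial genes, 7 had a positive difference with TSA, with a median of 0.61. At an unadjusted p under 0.05 in limma, 5 were higher, where 10.5% of all genes tested were. The only one called was Vwf, with 2.96 ± 0.15 (adjusted p = 0.00526). The part of endothelial cells in the Stab1 value was not tested. Neither Clec10a nor Stab1 was called in MuSC, where 3 genes of the list were called higher and 2 lower. There Retnla, with 1.04 ± 0.19 (adjusted p = 0.0263 in limma), Folr2, with 0.95 (adjusted p = 0.0281), and Pf4, with 0.90 (adjusted p = 0.032), were higher. Arg1 was at least 1.75 times lower in MuSC (adjusted p = 0.00446), and Gas6, the ligand of Mertk, was lower by -1.39 ± 0.18 (adjusted p = 0.0119).

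Of 9 tested inflammatory genes, 1 was called higher with TSA, the cytokine gene Il1b. It read 7.72% and 11.3% in Sca1+ TSA and 10.6% in MuSC, and was not well above background on either Sca1+ vehicle array. It was at least 2.14 times higher with TSA (adjusted p = 0.0375) and at least 2.43 times higher in MuSC (adjusted p = 0.0136). Ptgs2 was lower in MuSC, with -2.69 ± 0.21 (adjusted p = 0.00358).

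Markers of further cell types that a sort can carry were measured beside the macrophage genes. Of 9 tested MHC class II and dendritic cell genes, none was called with TSA in limma (6 higher at an unadjusted p under 0.05, median 0.64 over the 9) and 3 were called higher in MuSC: H2-Eb1, with 0.81 ± 0.19 (adjusted p = 0.0479), Itgax, the gene of CD11c, with 0.93 ± 0.18 (adjusted p = 0.0303), and Cd209a, at least 1.6 times higher (adjusted p = 0.0261). The list's summed level was 3525% and 3493% in Sca1+ TSA, 3934% in MuSC and 2360% and 2076% in Sca1+ vehicle. Of 8 tested neutrophil genes, none was called with TSA in limma (1 lower at an unadjusted p under 0.05, median -0.25). Neutrophils share Lyz2, and their part in its value was not tested. Of 7 tested lymphocyte genes, 2 had a positive difference with TSA, and the median was -0.64. The B-cell gene Ms4a1 alone was called, at least 3.46 times higher with TSA (adjusted p = 0.0122 in limma), while the B-cell gene Cd79a had -0.72. No array had Cd3d, Cd3g or Ncr1 well above background.

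Genes of the sorted populations themselves also differed between the groups. Of 8 genes of fibroadipogenic progenitors, all had a negative difference with TSA, with a median of -0.86. All 8 were lower at an unadjusted p under 0.05 and 1 was called. In MuSC all 8 were called lower. Pdgfra, the receptor that marks fibroadipogenic progenitors, read 1473% and 1861% in Sca1+ TSA, 31.9% in MuSC and 2835% and 2920% in Sca1+ vehicle. Pax7, the transcription factor of satellite cells, read 50.3% and 44.8% in Sca1+ TSA, 1118% in MuSC and 7.32% and 4.40% in Sca1+ vehicle. The summed satellite cell genes were 3782% and 3952% in Sca1+ TSA, 22911% in MuSC and 1243% and 1208% in Sca1+ vehicle. In Sca1+ TSA minus MuSC, the log2 differences of Mrc1, Tyrobp, Cd68 and Aif1 lay between -0.06 and 0.06, and that of Trem2 was -0.19. Those of Lyz2, Fcgr1, Cd14 and the brightest Csf1r probe were -0.40, -0.24, 0.33 and 0.13. Of the 20 other macrophage genes, 4 had a positive difference, with a median of -0.19, and Slc11a1 had -0.92 and Cd209f -2.03. The 12 tested resident or repair-type genes had a median of 0.20. The part of satellite cells or of mast cells in the macrophage values was not tested.

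**Figure D4:**
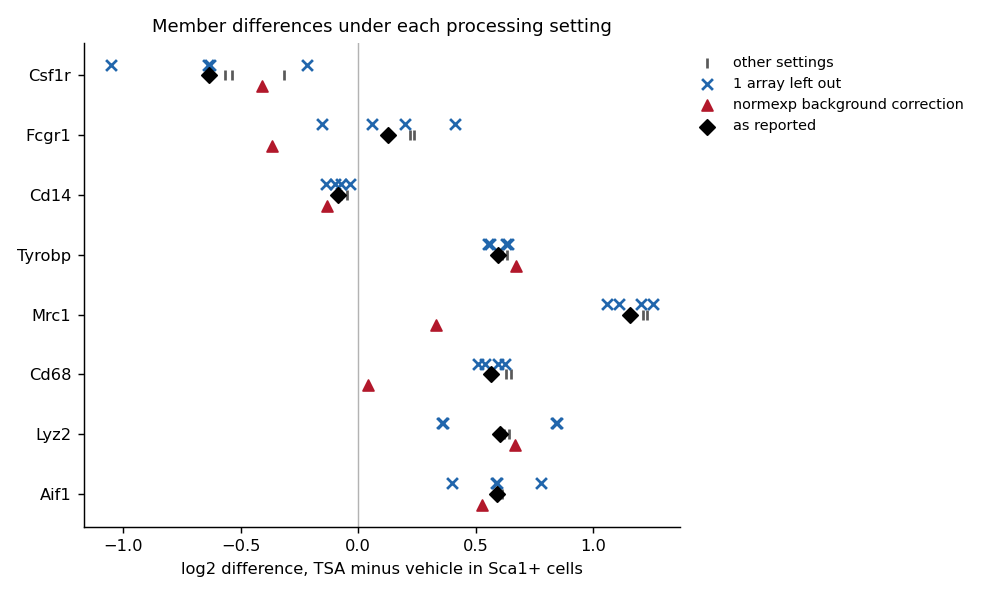
Log2 difference of TSA minus vehicle for the 8 tested members under each way of processing, with diamonds for the reported value, crosses for fits without 1 array, triangles for normexp background correction and ticks for the other settings. Tyrobp stayed between 0.55 and 0.67, Mrc1 and Cd68 had 0.33 and 0.04 with normexp, Csf1r ranged from -1.05 to -0.22, and Fcgr1 lay on both sides of 0.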

How the data were processed

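Sorted-cell RNA was hybridised to 5 Agilent arrays of 1 colour. Per the file headers, the authors obtained each spot's intensity with Agilent Feature Extraction. The processed intensity is background-subtracted and spatially detrended, and arrays were not scaled to each other. A deposited table holds log2 values whose columns share a median of 4.67, as quantile normalization gives; ranks matched the scanner values, and no tool is named for it.

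Values here are log2 of the processed intensity minus each array's 75th percentile over 59305 non-control spots. Control spots and outlier spots (0.196% to 0.334% per array) were left out, and genes lacking a value on any array were dropped. No member spot was saturated. Probes kept the scanner files' names, updated through accessions in a RefSeq table for 26413 of 55681. The probe with the highest mean stood for a gene. Of all genes, 26082 passed the filter (well above background on each array of 1 group or more) and were tested.

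The tests used limma 3.58.1 under R 4.3.3 (lmFit, eBayes, two-sided, Benjamini-Hochberg over all genes tested, threshold 0.05) on 5 arrays in 3 groups. Residual degrees of freedom were 2, and the prior added 2.3. Errors beside log2 differences are standard errors. An "at least" fold has as its denominator, per array of the dimmer group, the lowest signal well above background or the probe's signal if higher, and reflects background only. Precision is limited by how few arrays there are. The script was tested on simulated data. Tables were made with Python 3.11.15 and pandas 2.3.3.

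Named were all 9 members and their probes, 13 further genes by name, called genes of the other lists (where more than 3 were called, the 3 largest differences), and the 6 genes nearest to the members' mean profile. Folr2 and Pf4 were named in addition. Genes and lists were chosen with earlier results of these data known. Alternatives were normexp (offset 50, on median spot signal because the slide 2 files hold no mean signal), quantile normalization, the deposited values, other filters and probe rules, an intensity trend, the replicate number as a block, and leaving out each Sca1+ array. Replicate numbers coincide with slides. Deviations of replicate 1 from the group mean correlated by 0.348 between Sca1+ TSA and Sca1+ vehicle across 26082 genes, which are not independent replicates. With only 2 pairs, and labels that do not say that numbers pair, the block was kept as an alternative.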

Additional observations from a re-analysis of the deposited data

How the results depend on the processing

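Each setting was changed alone. For TSA minus vehicle, 0 members were called higher as reported, against 2 with normexp (Lyz2, adjusted p = 0.0346, and Tyrobp) and 1, Mrc1, with quantile normalization (adjusted p = 0.0334), the deposited values (0.032), only genes well above background on all 5 arrays (0.0387), the mean over probes (0.0468), the slide or replicate block (0.0436) and an intensity trend (0.0301). Over all genes the calls, higher and lower, were 708 and 70 as reported. They were 1253 and 5941 with normexp, 280 and 3 without a filter, 1198 and 475 with a trend, 770 and 46 with every probe, and 932 and 166 with the replicate block. Leaving out 1 array gave 0 to 319 higher and 0 to 2 lower, the zeros without a TSA array. The median over all genes was -0.25 with normexp, against -0.13. For MuSC minus vehicle, 2735 genes were higher and 3045 lower as reported, 1571 and 1808 without a filter, and 1587 to 2009 and 1832 to 2288 with 1 array left out. Members called were 1 as reported, 0 without a filter and 3 with a trend (Mrc1, Lyz2 and Tyrobp), and the Mrc1 call was lost with any 1 Sca1+ array left out. With normexp the 1 was Lyz2 (0.97, adjusted p = 0.0113). For TSA minus MuSC, 2076 and 1261 became 981 and 323 without a filter, 2137 were lower with a trend, and leaving out 1 array gave 0 to 1542 higher and 0 to 805 lower. Signs turned for Fcgr1 (TSA minus vehicle -0.37 with normexp and -0.16 to 0.41 with 1 array left out, negative without vehicle replicate 1, MuSC minus vehicle -0.020 with normexp) and, in TSA minus MuSC, for Mrc1 (-0.11 with normexp), Tyrobp (0.058 with normexp, 0.0097 with the replicate block, -0.061 to 0.0056 with 1 array left out, positive without TSA replicate 2) and Csf1r (-0.081 with the replicate block). The replicate block changed no other member's call. All these values were uncalled, and the cause was not tested. The 5 arrays, 1 of them MuSC, limit every statement, and Cd163 and Spi1 are limited by background.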
